A study of Arabidopsis thaliana with 18 samples.

Results

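The genes described here are the nuclear genes of Arabidopsis that encode the subunits of photosystem I and photosystem II and the light-harvesting antenna proteins bound to them. They were chosen by locus and not by their level, but with earlier results of these data known. The 44 genes, of the 32832 in the count table, are the 6 antenna genes of photosystem I (LHCA1 to LHCA6, here the LHCI antenna), 15 antenna genes named LHCB (here called the LHCII antenna), 12 genes of photosystem I subunits (PSA) and 11 genes of photosystem II subunits (PSB). The label LHCII antenna is used for all LHCB genes, so it also takes in those of the minor antennae, LHCB4 to LHCB6. RNA came from whole 5-day-old seedlings of 6 groups with 3 libraries each, 18 in all. These were atm1-1 seedlings on 15 mM sucrose, on 15 mM glucose and on mock medium without sugar, and Col-0 wild-type seedlings on the same 3 media. The atm1-1 line carries a T-DNA insertion, SAIL_405_B08, in ATM1 (AT3G19960), a gene of a class VIII myosin motor protein, and it is a single allele. The study asked how sugar and the loss of this myosin alter seedling transcription, with root growth as its main subject.

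In the light reactions of photosynthesis, the antenna proteins hold chlorophyll and carotenoid pigments and pass absorbed light energy to the reaction centres. Photosystem II then takes electrons from water, and photosystem I hands them on to ferredoxin. The reaction centre proteins themselves are encoded in the chloroplast genome, while the antenna proteins and many smaller subunits are encoded in the nucleus, so a working photosystem draws on both genomes. Nuclear genes of photosynthesis are known in plants to be turned down when sugar is supplied. QuantSeq libraries count reads at the 3′ ends of polyadenylated transcripts, and the 285 chloroplast and mitochondrial genes in the table hold 0 counts, so the account covers the nuclear subunits only.

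The libraries held 9450790 to 20256309 counts on genes. Replicate libraries correlated at r = 0.943 to 0.986 over the log2 values of the tested genes, and the lowest value was between replicates 1 and 2 of atm1-1 on glucose. Replicate 2 of that group also had the lowest scaling factor of the TMM normalization (0.857, against 0.927 to 1.13 in the others). Some results are therefore given with and without it, among them changes of LHCB1.1, PSBO1 and LHCB2.3. Changes of most other genes are given only with it, also where it stood apart, as for LHCB5 and PSBQ1. ATM1 had 311 to 623 counts per library and differed between atm1-1 and Col-0 over the 3 treatments by -0.081 ± 0.11 on the log2 scale (SE, q = 0.86 by edgeR), but reads at the 3′ end do not tell whether a transcript is full length, so this does not check the genotype labels. The summed level of 17 root marker genes was 979 to 1335 CPM (counts scaled to a common library total) in atm1-1 on sucrose, 1086 to 1453 on glucose and 1110.0 to 1261 under mock. In Col-0 it was 1080.2 to 1271 CPM on sucrose, 703 to 1106 on glucose and 1019 to 1165 under mock. The 12 shoot markers outside photosynthesis summed to 94.7 to 96.6, 95.8 to 123 and 95.9 to 116 CPM in atm1-1 on sucrose, glucose and mock, and to 86.6 to 97.4, 91.5 to 98.8 and 98.9 to 107 CPM in Col-0. Libraries on sugar and under mock overlapped in both sums except for the shoot markers of Col-0, where sugar libraries lay narrowly below mock libraries. Of the markers, SMB and NRT2.1 of the root and MUTE, CUC2 and GL1 of the shoot were at 0 in some libraries, and none was at 0 in all. A smaller share of green tissue in a seedling cannot be told apart from less RNA of these genes per cell.

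These few genes made up a large part of the messenger RNA of the seedlings. Together the 44 genes took 19.4%, 22.1% and 20.8% of all counts in the 3 atm1-1 libraries on sucrose, 22.0%, 23.1% and 21.7% on glucose and 23.3%, 25.6% and 25.4% under mock. In Col-0 they took 22.4%, 21.1% and 20.1% on sucrose, 22.9%, 21.8% and 22.1% on glucose and 25.3%, 24.8% and 24.8% under mock. All 12 sugar libraries lay below all 6 mock libraries in this share, by a narrow margin between replicate 2 of atm1-1 on glucose and replicate 1 of atm1-1 under mock. On the scale of TMM-normalized CPM the same glucose library lay inside the mock range. The antenna genes took 12.7% ± 0.772 (SD, n = 3) of all counts in atm1-1 on sucrose, 13.7% ± 0.846 on glucose and 15.0% ± 0.843 under mock, and 13.1% ± 0.252, 13.4% ± 0.530 and 15.0% ± 0.179 in Col-0 on the same media. Photosystem I genes took 4.39% ± 0.278 in atm1-1 on sucrose, 4.72% ± 0.315 on glucose and 5.42% ± 0.305 under mock, against 4.46% ± 0.442, 4.90% ± 0.0636 and 5.51% ± 0.247 in Col-0. For photosystem II genes the shares were 3.64% ± 0.309, 3.87% ± 0.0834 and 4.37% ± 0.185 in atm1-1, against 3.58% ± 0.483, 3.98% ± 0.180 and 4.43% ± 0.115 in Col-0. Sugar libraries had lower mean shares than mock libraries in each of these sets in both genotypes, and the sets were not tested against each other.

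**Figure D1:**
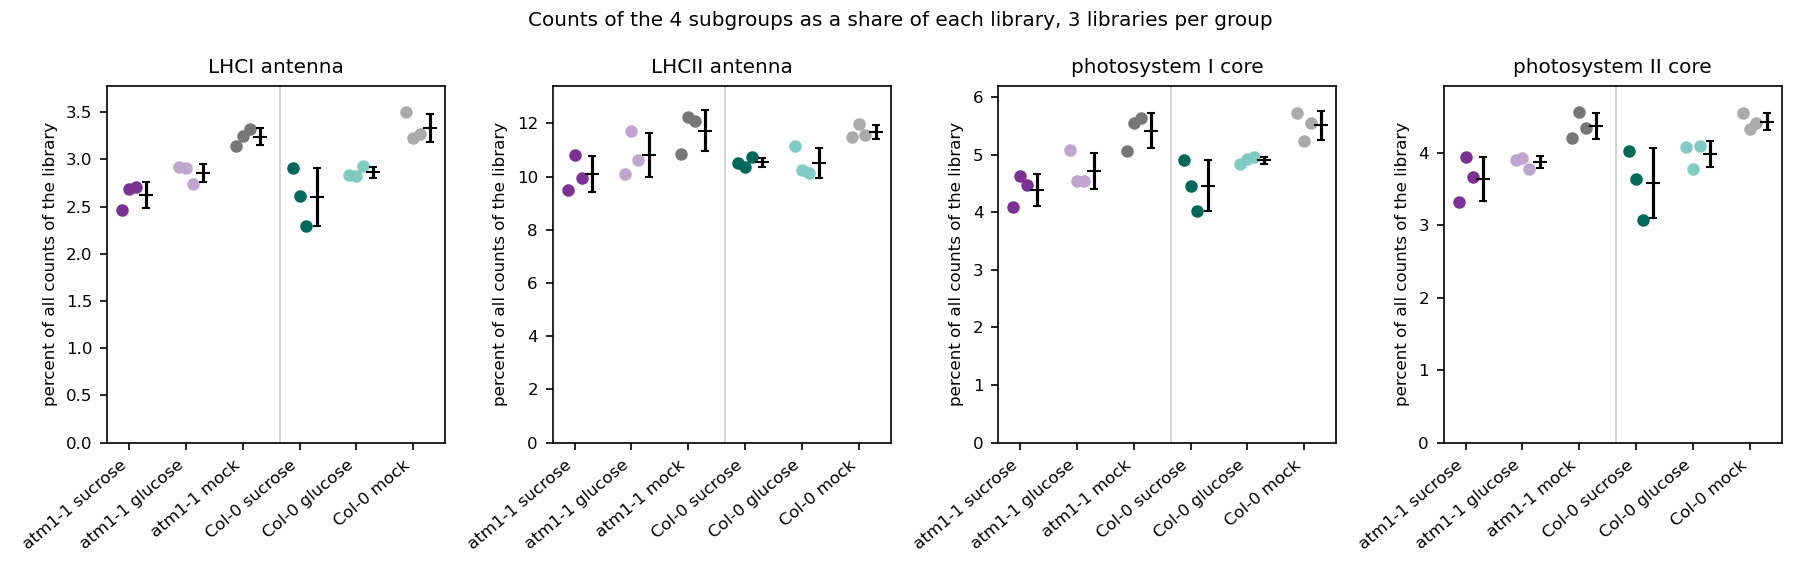
Counts of the 4 sets of genes as a percent of all counts of each library (vertical axis, from 0), for the 6 groups (horizontal axis). Points are single libraries and bars the mean ± SD of 3 libraries. Photosystem I genes took 4.39% ± 0.278 in atm1-1 on sucrose against 5.42% ± 0.305 under mock, and the LHCII antenna is the largest set in all 18 libraries.

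The make-up of the pool differed little between groups. LHCII antenna genes were 48.7% ± 0.691 of the counts of the 44 genes in atm1-1 on sucrose, 48.6% ± 2.44 on glucose and 47.4% ± 0.625 under mock, and 49.9% ± 3.2, 47.2% ± 1.44 and 46.8% ± 1.45 in Col-0. The highest value was that of replicate 3 of Col-0 on sucrose, at 53.3%, and that library also had the smallest part from photosystem II genes, 15.3%. Replicate 2 of atm1-1 on glucose had the smallest part from photosystem I genes, 19.6%, beside 23.1% and 20.9% in its replicates. Levels of single genes are given as TMM-normalized CPM. A 3′ library counts transcripts and not their length, so levels are set side by side between genes without a correction for length. Whether the reads of each gene were counted equally well was not tested, and reads from stretches shared by similar copies could have been lost. Of the 44 genes, 8 averaged over 10000 CPM and 32 over 1000 CPM across the 18 libraries, 8 were between 100 and 1000 CPM and 4 were under 100 CPM. The highest averages were those of LHCB1.5 (18873 CPM), LHCB1.1 (17265 CPM) and LHCB1.4 (16858 CPM), which encode the main protein of the mobile antenna trimers. The 4 lowest were LHCB4.3 (1.44 CPM), LHCB7 (7.40 CPM), LHCA6 (10.6 CPM) and PSBO2 (75.7 CPM). LHCB4.3 had as few as 3 counts in a library, so its fold changes are imprecise.

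Sugar lowered most of these genes when both sugars and both genotypes were pooled. In the comparison of the 12 sugar libraries with the 6 mock libraries, 30 of the 44 genes were lower at q ≤ 0.1 and none was higher, against 5.78% of the 19679 tested genes that were called lower. The q is a Benjamini-Hochberg adjusted p-value of edgeR's quasi-likelihood test, and 0.1 is the threshold of the study. The median log2 fold change of the 44 genes was -0.32, beside -0.0026 over all genes tested, and the fold changes ran from -0.76 to 0.024. By set, the calls were 5 of 6 genes of the LHCI antenna (median -0.35), 8 of 15 of the LHCII antenna (median -0.30), 9 of 12 photosystem I genes (median -0.32) and 8 of 11 photosystem II genes (median -0.35). Of the 14 genes that did not pass, 13 also had negative fold changes, with q between 0.107 and 0.959. The count was 20 without replicate 2 of atm1-1 under mock. Without replicate 2 of atm1-1 on glucose it was 36. Counts over all tested genes without these libraries are not given here, so this shift is not shown to be particular to the 44 genes.

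**Figure D2:**
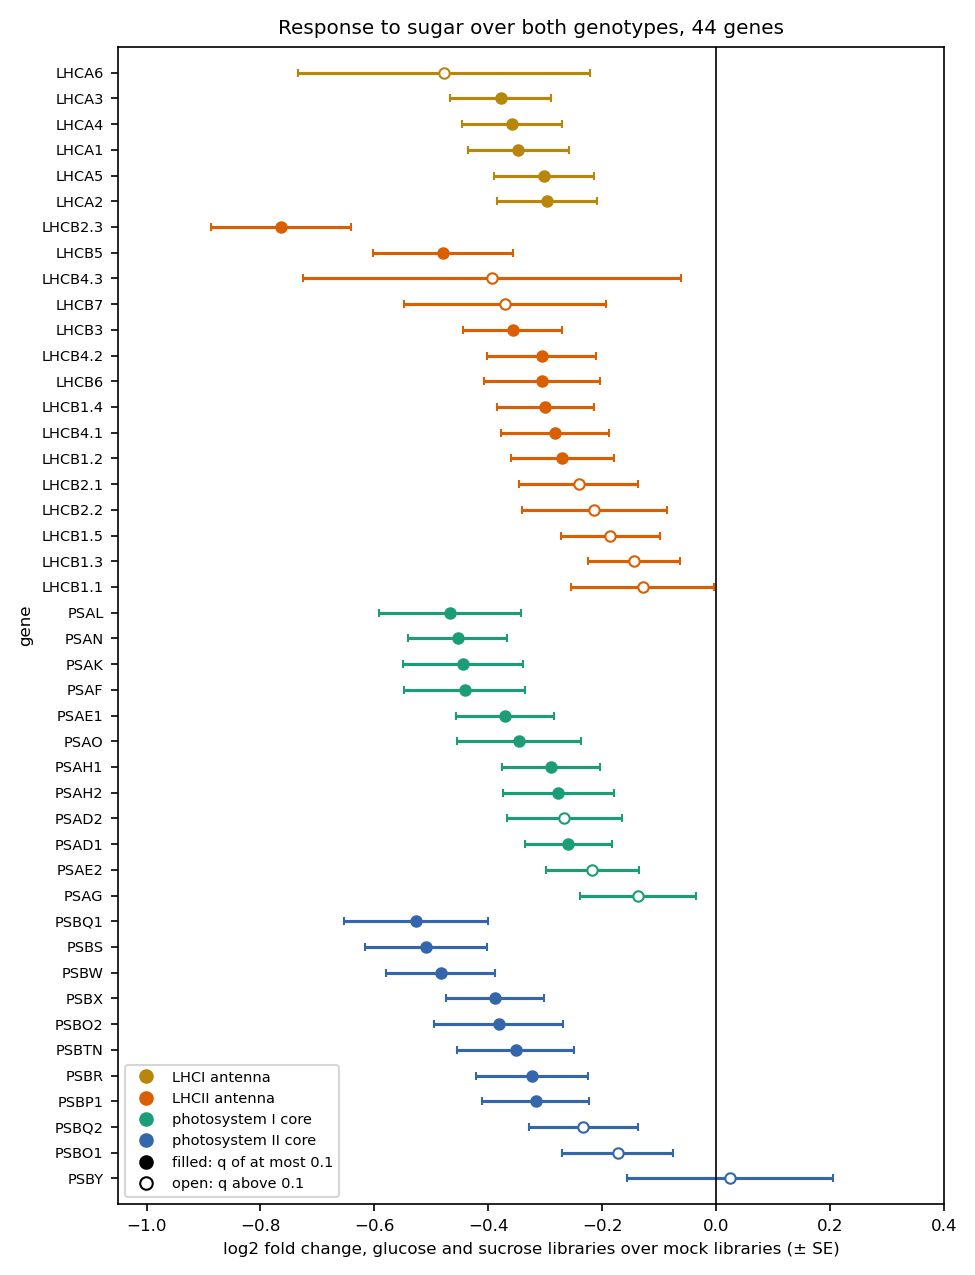
Log2 fold change of each of the 44 genes (horizontal axis) in glucose and sucrose libraries over mock libraries, both genotypes together, with bars of ± 1 SE and genes grouped by set and ordered by size. Filled points passed q ≤ 0.1 and open points did not: 30 genes are filled, LHCB2.3 is farthest left at -0.76, and PSBY alone lies right of 0, at 0.024.

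Taken one sugar and one genotype at a time, with 3 libraries against 3, fewer genes passed and sucrose gave more calls than glucose. On sucrose, 12 of the 44 genes were lower in atm1-1 (2.39% of all tested genes were called lower) and 6 in Col-0 (0.899% of all tested genes). On glucose, 1 of 44 was lower in atm1-1 (0.722% of all tested genes), and in Col-0 0 of 44 were called, by edgeR as well as by DESeq2 (0.112% of all tested genes by edgeR), although 6 of the 44 had an unadjusted p under 0.05, as did 1194 of all 19679 tested genes. No gene was called higher in any of these 4 comparisons. The medians of the 44 log2 fold changes were -0.43 on sucrose in atm1-1, -0.36 on sucrose in Col-0, -0.23 on glucose in atm1-1 and -0.25 on glucose in Col-0. All 44 fold changes were negative on sucrose in atm1-1 and on glucose in Col-0, 42 were negative on sucrose in Col-0 and 40 on glucose in atm1-1. The counts of calls rest on single libraries. Counts over all tested genes with a library left out are not given here, so these shifts are not shown to be particular to the 44 genes. Without replicate 1 of Col-0 on sucrose the Col-0 sucrose count was 17, and it was 0 without any one of Col-0 mock replicates 1 and 3 and Col-0 sucrose replicates 2 and 3. In atm1-1 the sucrose count was 7 without mock replicate 1, 2 without mock replicate 2 or 3 or sucrose replicate 3, and 1 without sucrose replicate 1. The glucose count in atm1-1 was 11 without glucose replicate 1 and 0 without glucose replicate 2 or mock replicate 2.

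The ranges of the libraries were also compared, with no test. Every sucrose library lay below every mock library for 32 of the 44 genes in atm1-1 (12.1% of all tested genes) and for 30 of 44 in Col-0 (10.1% of all tested genes). With both genotypes together, every one of the 12 sugar libraries lay below every one of the 6 mock libraries for 2 of the 44 genes, PSAN and PSBW (0.493% of all tested genes). Within several groups most of the 44 genes were high or low together. Replicate 1 of atm1-1 on sucrose held the lowest value of its group for 37 of the 44 genes and replicate 2 the highest for 37, and replicate 1 of atm1-1 under mock held the lowest for 37. In Col-0 on sucrose, replicate 3 was lowest for 27 genes and highest for 16. The 44 fold changes of one comparison therefore share their errors and are not 44 independent measurements.

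LHCA1, LHCA4 and LHCA3 are the most abundant genes of the photosystem I antenna, whose proteins form a belt on one side of the complex. LHCA1 (AT3G54890) was at 8553, 10145 and 10378 CPM in atm1-1 on sucrose, 12048, 13261 and 10519 on glucose and 12195, 13236 and 14466 under mock. In Col-0, LHCA1 was at 10910.0, 8718 and 7449.8 CPM on sucrose, 10832, 12134 and 11076 on glucose and 14393, 12169 and 13176 under mock. Sucrose libraries lay below mock libraries in both genotypes, and among the glucose libraries only replicate 2 of atm1-1 reached into its mock range. The log2 fold change was -0.46 ± 0.15 (SE, q = 0.0938) on sucrose in atm1-1, -0.55 ± 0.15 (q = 0.0648) in Col-0 and -0.35 ± 0.089 (q = 0.0145) over both sugars and genotypes. LHCA4 (AT3G47470), whose protein pairs with LHCA1 and binds the chlorophylls that absorb farthest to the red, was at 6654, 8724 and 7852 CPM in atm1-1 on sucrose, 8254, 10738 and 8604 on glucose and 10070.2, 11225 and 10949.7 under mock. In Col-0, LHCA4 was at 8597, 7678 and 6141 CPM on sucrose, 8733, 8668 and 8806 on glucose and 10899, 9902 and 10476 under mock. The pattern was that of LHCA1, with a single glucose library of atm1-1, replicate 2, above the lowest mock library. Over both sugars and genotypes it changed by -0.36 ± 0.087 (q = 0.00983), and on sucrose in atm1-1 it changed by -0.47 ± 0.14 (q = 0.0748). LHCA3 (AT1G61520) was at 4448, 5541 and 5073 CPM in atm1-1 on sucrose, 5179.5, 7274 and 5451 on glucose and 6335, 6556 and 6956 under mock. In Col-0, LHCA3 was at 5348, 4966 and 4314 CPM on sucrose, 6091, 5093 and 5618 on glucose and 8077, 6657 and 7187 under mock. It separated both sugars from mock in Col-0, and in atm1-1 replicate 2 on glucose was above all mock libraries. Its fold change was -0.58 ± 0.15 on sucrose in Col-0 (q = 0.0488) and -0.38 ± 0.088 over all (q = 0.00717). LHCA2 (AT3G61470) and LHCA5 (AT1G45474) also passed in the comparison over all, at -0.30 and -0.30. LHCA6 (AT1G19150), whose protein with LHCA5 links photosystem I to the chloroplast NDH complex, averaged 10.6 CPM and did not pass (log2 fold change -0.48 ± 0.26, q = 0.289).

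The LHCII antenna held the largest fall of the 44 genes. LHCB2.3 (AT3G27690), one of 3 genes for the LHCB2 protein whose phosphorylation moves antenna between the photosystems, was at 418, 672 and 643 CPM in atm1-1 on sucrose, 813, 483 and 707 on glucose and 908, 1615 and 1008 under mock. In Col-0, LHCB2.3 was at 898, 759 and 758 CPM on sucrose, 1044, 814 and 991 on glucose and 1245, 1451 and 1298 under mock. Each sugar group lay wholly below the mock group of its genotype, and the spread within atm1-1 mock was wide, with replicate 2 far above the others. It was called in 4 of the 5 comparisons of sugar with mock, with log2 fold changes of -1.03 ± 0.21 (q = 0.00468) on sucrose and -0.82 ± 0.21 (q = 0.0359) on glucose in atm1-1, -0.73 ± 0.21 (q = 0.0871) on sucrose in Col-0 and -0.76 ± 0.12 (q = 0.000169) over all. On glucose in Col-0 its fold change was -0.49 ± 0.21 (q = 0.693). Without replicate 2 of atm1-1 under mock the fall on glucose in atm1-1 did not pass (-0.52, q = 0.331), nor did it without replicate 2 on glucose (-0.63, q = 0.16). Its share of the LHCB2 counts was 6.48% ± 1.39 (SD, n = 3) in atm1-1 on sucrose, 6.78% ± 3.36 on glucose and 9.44% ± 1.55 under mock, against 7.62% ± 1.77, 8.79% ± 0.790 and 10.6% ± 0.785 in Col-0 on the same media. The more abundant LHCB2.1 (AT2G05100) and LHCB2.2 (AT2G05070) did not pass over all, with -0.24 ± 0.10 (q = 0.166) and -0.21 ± 0.13 (q = 0.352).

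LHCB1 is the most abundant antenna protein of photosystem II and is encoded by 5 genes here. LHCB1.5 (AT2G34420) was at 16049, 20293 and 18205 CPM in atm1-1 on sucrose, 17972, 22509 and 18322 on glucose and 17616, 22775 and 21794 under mock. In Col-0, LHCB1.5 was at 17167, 16818 and 15492 CPM on sucrose, 20619, 16776 and 16481 on glucose and 20889, 19517 and 20424 under mock. Groups overlapped in atm1-1, and in Col-0 the sucrose libraries alone lay below mock. The fold change over all was -0.19 ± 0.087 and did not pass (q = 0.209). LHCB1.1 (AT1G29920) was at 12787, 17213 and 14533 CPM in atm1-1 on sucrose, 14162, 32743 and 17898 on glucose and 16821, 20164 and 22717 under mock. In Col-0, LHCB1.1 was at 13536, 14532 and 15269 CPM on sucrose, 17565, 17803 and 13505 on glucose and 15273, 16936 and 17305 under mock. Replicate 2 of atm1-1 on glucose was the highest of all 18 libraries and in Col-0 the sucrose libraries lay just below mock. The fold change over all was -0.13 ± 0.13 (q = 0.608), and without that library it was -0.24 and passed (q = 0.083). LHCB1.4 (AT2G34430) was at 12074, 17367 and 15615 CPM in atm1-1 on sucrose, 15563, 18496 and 16263 on glucose and 18096, 20898 and 20208 under mock. In Col-0, LHCB1.4 was at 16348, 14737 and 13077 CPM on sucrose, 15896, 16642 and 15836 on glucose and 18992, 18867 and 18469.9 under mock. Both sugars lay below mock in Col-0 and sucrose did in atm1-1, and the fold change over all passed, at -0.30 ± 0.085 (q = 0.0272). Of the other LHCB1 genes, LHCB1.2 (AT1G29910) passed at -0.27 ± 0.09 (q = 0.0651) and LHCB1.3 (AT1G29930) did not, at -0.14 ± 0.081 (q = 0.313).

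The other LHCB genes encode the third trimer protein and the minor antennae that sit between the trimers and the photosystem II core. LHCB3 (AT5G54270) changed by -0.36 ± 0.087 over all (q = 0.0101), and LHCB5 (AT4G10340), for the minor antenna CP26, changed by -0.48 ± 0.12 (q = 0.0145). LHCB5 was lowest in replicate 2 of atm1-1 on glucose, with 2992, 1284 and 2502 CPM in the 3 libraries of that group. LHCB4.1 (AT5G01530) and LHCB4.2 (AT3G08940), for CP29, passed at -0.28 (q = 0.0665) and -0.31 (q = 0.0487), and LHCB6 (AT1G15820), for CP24, at -0.31 (q = 0.0632). LHCB4.3 (AT2G40100) and LHCB7 (AT1G76570) were rare transcripts that did not pass, with -0.39 ± 0.33 (q = 0.542) and -0.37 ± 0.18 (q = 0.224).

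**Figure D3:**
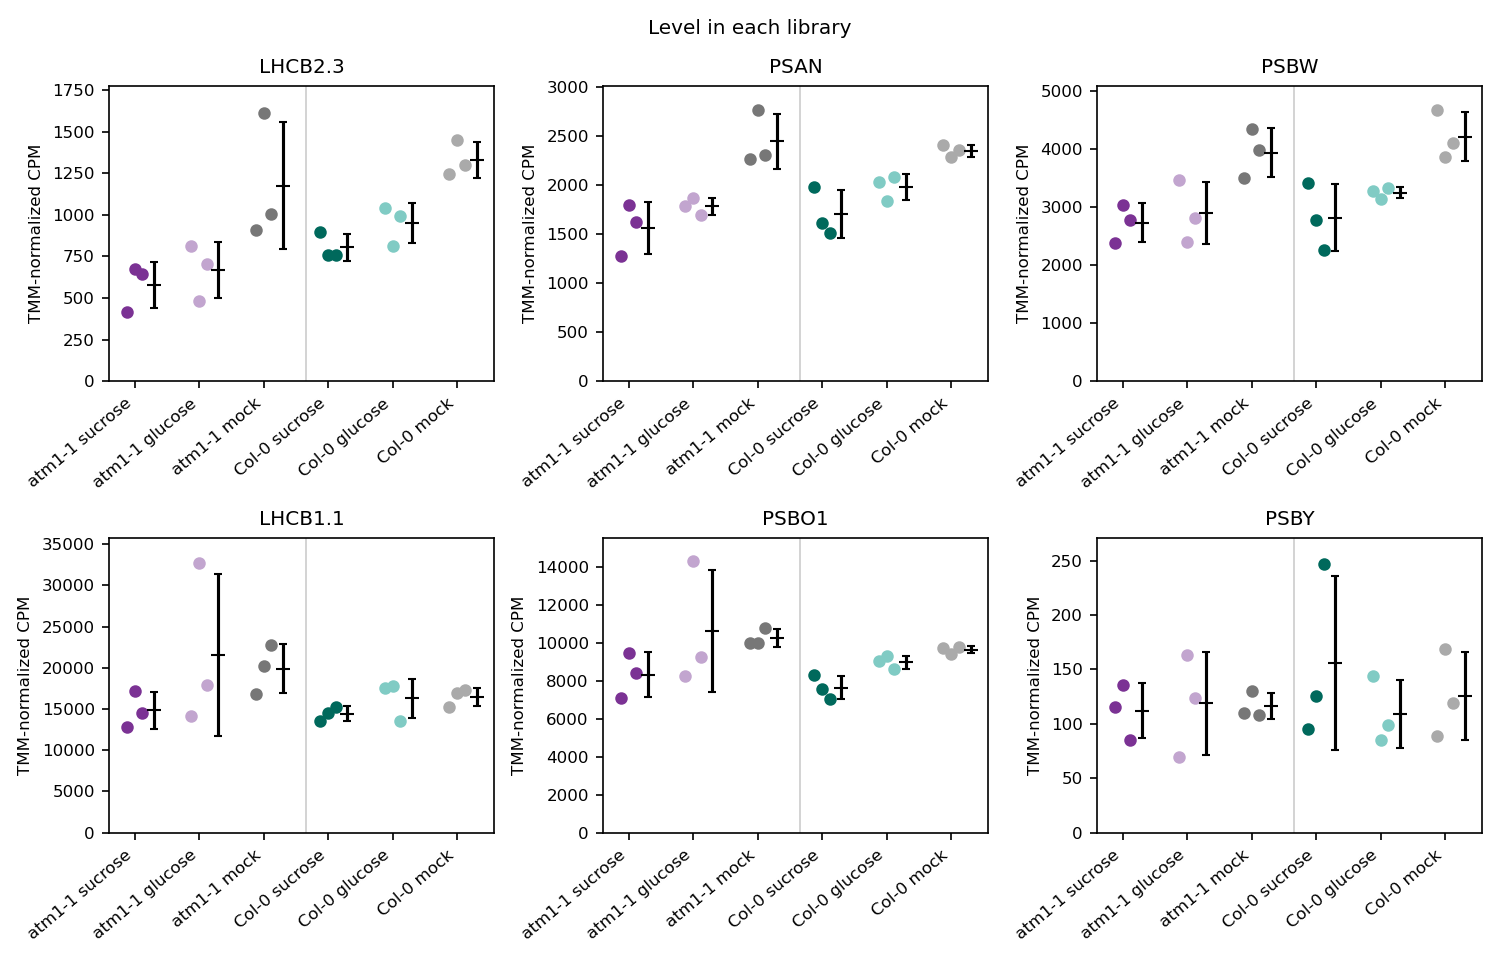
TMM-normalized CPM in each library (vertical axes, from 0) of 6 genes in the 6 groups, with bars of the mean ± SD of 3 libraries. LHCB2.3, PSAN and PSBW lie lower on both sugars than under mock within each genotype, while LHCB1.1 and PSBO1 each have 1 high library, replicate 2 of atm1-1 on glucose, and PSBY varies among replicates with groups that overlap.

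Of the 12 photosystem I genes, 9 were lower on sugar over both genotypes and PSAG, PSAD2 and PSAE2 did not pass. PSAO (AT1G08380), a small subunit near the docking site of the mobile antenna, was at 7707, 10757 and 10462 CPM in atm1-1 on sucrose, 12692, 14499 and 10686 on glucose and 12063, 13447 and 15386 under mock. In Col-0, PSAO was at 11315, 8579 and 6230.5 CPM on sucrose, 11012, 12275 and 11623 on glucose and 14643, 11046 and 13798 under mock. Sucrose libraries were apart from mock in atm1-1 only, and replicate 3 of Col-0 on sucrose was the lowest of all 18. The fold change over all was -0.35 ± 0.11 (q = 0.0511). PSAF (AT1G31330), which helps dock the electron donor plastocyanin, was at 7378, 9092 and 8822 CPM in atm1-1 on sucrose, 10806, 10505 and 8677 on glucose and 11233, 12713 and 13556 under mock. In Col-0, PSAF was at 9665, 8124 and 5102 CPM on sucrose, 9435, 11312 and 10199 on glucose and 13303, 10293 and 12434 under mock. Both sugars lay below mock in atm1-1, and sucrose did in Col-0, with replicate 3 again far below. It changed by -0.57 ± 0.18 (q = 0.0798) on sucrose in atm1-1, -0.65 ± 0.18 (q = 0.0688) in Col-0 and -0.44 ± 0.11 (q = 0.00877) over all. Without replicate 3 of Col-0 on sucrose the PSAF change on sucrose in Col-0 was -0.43 and did not pass (q = 0.4), and it also did not pass without replicate 2 of that group or without Col-0 mock replicate 1 or 3. PSAG (AT1G55670), near the antenna belt, was at 8089, 10629.6 and 8582 CPM in atm1-1 on sucrose, 7822, 13637 and 9769.8 on glucose and 9219, 11205 and 10499 under mock. In Col-0, PSAG was at 7940.5, 8835 and 9668 CPM on sucrose, 10506, 8857 and 8138 on glucose and 9745, 10370.3 and 10698 under mock. Groups overlapped except for sucrose against mock in Col-0, and PSAG did not pass over all (-0.14 ± 0.10, q = 0.474).

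PSAN (AT5G64040), a lumenal subunit that takes part in plastocyanin binding, was at 1273, 1795 and 1623 CPM in atm1-1 on sucrose, 1783, 1866 and 1698 on glucose and 2264, 2767 and 2308 under mock. In Col-0, PSAN was at 1979.8, 1617 and 1511 CPM on sucrose, 2037, 1834 and 2079 on glucose and 2408, 2284 and 2363 under mock. It is one of the 2 genes whose sugar libraries all lay below all mock libraries. PSAN changed by -0.45 ± 0.087 over all (q = 0.00126) and by -0.65 ± 0.14 on sucrose in atm1-1 (q = 0.0108). PSAK (AT1G30380) and PSAL (AT4G12800), for subunits on the 2 sides where antenna proteins attach, changed over all by -0.44 ± 0.10 (q = 0.00784) and -0.47 ± 0.12 (q = 0.0193). PSAE1 (AT4G28750) changed by -0.37 ± 0.086 (q = 0.00684) and PSAD1 (AT4G02770) by -0.26 ± 0.076 (q = 0.0342), and both encode subunits of the ferredoxin docking site. Their less abundant copies did not pass, with -0.22 ± 0.081 (q = 0.107) for PSAE2 (AT2G20260) and -0.27 ± 0.10 (q = 0.112) for PSAD2 (AT1G03130). PSAH1 (AT3G16140) and PSAH2 (AT1G52230), needed for the docking of LHCII to photosystem I, both passed, at -0.29 and -0.28.

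Among photosystem II genes the most abundant were PSBR, PSBO1 and PSBX. PSBR (AT1G79040), which helps hold the oxygen-evolving complex, was at 8378, 12218 and 10409 CPM in atm1-1 on sucrose, 11364, 11077 and 10906 on glucose and 11882, 14661 and 13718 under mock. In Col-0, PSBR was at 11598, 10220.2 and 6920.1 CPM on sucrose, 12423, 10897 and 11403 on glucose and 13808, 12332 and 13320.1 under mock. Its highest sugar library in each genotype came just inside the mock range, and it changed by -0.32 ± 0.098 over all (q = 0.0420). PSBO1 (AT5G66570), for the main protein that stabilises the manganese cluster, was at 7072, 9448 and 8425 CPM in atm1-1 on sucrose, 8274, 14298 and 9264 on glucose and 9969, 9977 and 10794 under mock. In Col-0, PSBO1 was at 8284, 7559.7 and 7062 CPM on sucrose, 9034, 9287 and 8596 on glucose and 9701, 9427 and 9801 under mock. All sugar libraries but replicate 2 of atm1-1 on glucose lay below the mock libraries of their genotype, and over all it did not pass (-0.17 ± 0.098, q = 0.317). Without that library the fold change was -0.24 and passed (q = 0.0308). PSBX (AT2G06520), a small membrane subunit, was at 3225, 4341 and 3992 CPM in atm1-1 on sucrose, 4383, 5361 and 4232 on glucose and 5016, 5882 and 5562 under mock. In Col-0, PSBX was at 4526, 3907 and 4146 CPM on sucrose, 5002, 4079 and 4892 on glucose and 6204, 5508 and 5814 under mock. Both sugars lay below mock in Col-0 and sucrose did in atm1-1, with a fold change over all of -0.39 ± 0.086 (q = 0.00473).

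The largest falls in the photosystem II set were those of PSBQ1 and PSBS. PSBQ1 (AT4G21280), for an extrinsic protein of the oxygen-evolving complex, was at 345, 432 and 412 CPM in atm1-1 on sucrose, 551, 252 and 408 on glucose and 544, 632 and 619.9 under mock. In Col-0, PSBQ1 was at 522, 434 and 281 CPM on sucrose, 453, 509 and 507 on glucose and 702, 549 and 617 under mock. Replicate 2 of atm1-1 on glucose and replicate 3 of Col-0 on sucrose were the 2 lowest libraries, and the fold change over all was -0.53 ± 0.13 (q = 0.00896). PSBS (AT1G44575), the sensor of lumen acidity for heat dissipation, was at 158, 210.5 and 199.6 CPM in atm1-1 on sucrose, 276, 156 and 196 on glucose and 256, 337 and 279 under mock. In Col-0, PSBS was at 267, 215 and 194 CPM on sucrose, 265, 241 and 265 on glucose and 374, 303 and 325 under mock. Its sugar libraries lay below the mock libraries of their genotype but for replicate 1 of atm1-1 on glucose. It changed by -0.62 ± 0.18 (q = 0.0559) on sucrose in atm1-1 and -0.51 ± 0.11 (q = 0.00299) over all. PSBW (AT2G30570), which helps stabilise the antenna supercomplex, was at 2375, 3043 and 2776 CPM in atm1-1 on sucrose, 3468, 2407 and 2810.0 on glucose and 3498, 4341 and 3991 under mock. In Col-0, PSBW was at 3411, 2778 and 2260.2 CPM on sucrose, 3281, 3143 and 3329 on glucose and 4681, 3867 and 4109 under mock. All its sugar libraries were below all mock libraries, the highest of them replicate 1 of atm1-1 on glucose, with a fold change over all of -0.48 ± 0.096 (q = 0.00176). PSBP1 (AT1G06680), PSBTN (AT3G21055) and PSBO2 (AT3G50820) also passed over all, at -0.32, -0.35 and -0.38. PSBO2 did not pass without replicate 2 of atm1-1 under mock (-0.25, q = 0.21) or without replicate 2 of Col-0 under mock (-0.29, q = 0.145). PSBQ2 (AT4G05180) did not, at -0.23 ± 0.096 (q = 0.149). PSBY (AT1G67740) was the only one of the 44 with a positive value, 0.024 ± 0.18 (q = 0.959), and its replicates spread widely, with 95.6, 126 and 247 CPM in Col-0 on sucrose against 88.8, 169 and 119 under mock.

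The responses of the 2 genotypes to sugar were compared by the interaction of genotype and sugar. The sucrose response of atm1-1 minus that of Col-0 was called for 0 of the 44 genes (0% of all tested genes), with 0 at an unadjusted p under 0.05 (558 of all 19679 tested genes) and 0 by DESeq2. For the glucose response the counts were also 0 of 44 by edgeR (0% of all tested genes), 0 at an unadjusted p under 0.05 (750 of all 19679) and 0 by DESeq2. The differences for sucrose had a median of -0.065 and ran from -0.93 for LHCA6 to 0.19, and 28 of the 44 genes were more negative in atm1-1. For LHCB2.3 the difference was -0.30 ± 0.29 for sucrose and -0.33 ± 0.29 for glucose (q = 1.000 and 1.000). The genes called on sucrose in the 2 genotypes had 4 in common, LHCA1, LHCB2.3, PSAF and PSBW. That is 33.3% of the 12 of atm1-1 and 66.7% of the 6 of Col-0. The 2 comparisons share no library, but they come from the same fit, in which the spread of a gene is estimated over all 18 libraries. The overlap over all tested genes is not given here, so this overlap is not shown to be particular to the 44 genes. As no interaction was called, a gene called in one genotype and not in the other is not shown to respond differently in them.

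**Figure D4:**
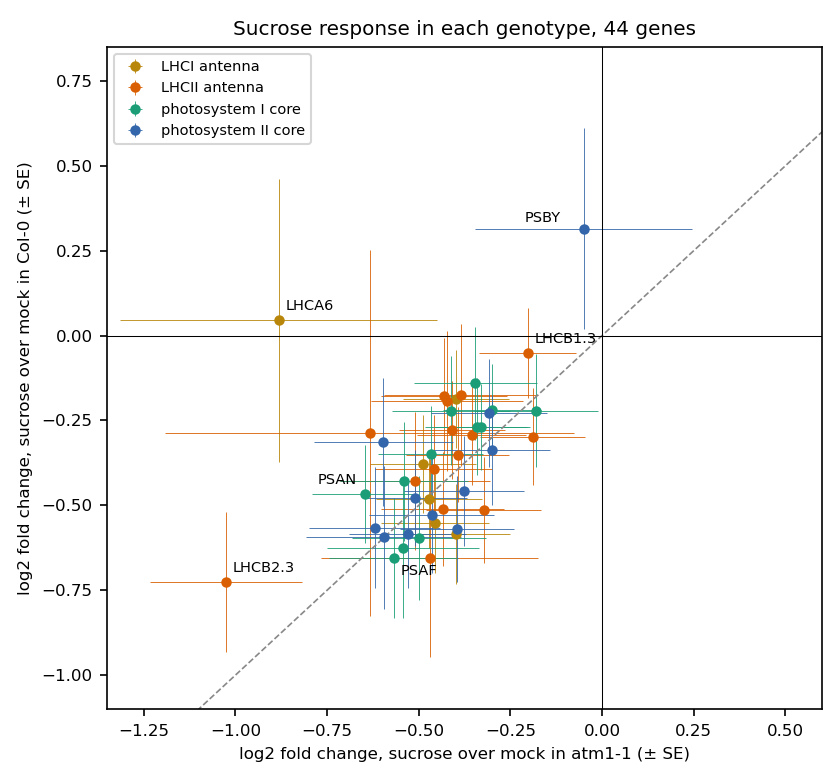
Log2 fold change of the 44 genes on sucrose over mock in atm1-1 (horizontal axis) and in Col-0 (vertical axis), with bars of ± 1 SE and a dashed line of equal response. Nearly all points lie in the lower left region, LHCB2.3 is farthest out at -1.03 in atm1-1 and -0.73 in Col-0, and PSBY and LHCA6 alone lie above 0 in Col-0, with wide bars.

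Sucrose and glucose were also set against each other. No gene of the 44 was called between them in atm1-1 (0% of all tested genes) or in Col-0 (0% of all tested genes), by edgeR or by DESeq2. At an unadjusted p under 0.05, 5 of the 44 differed in atm1-1, beside 936 of all 19679 tested genes, and 6 in Col-0, beside 1282 of 19679. The median sucrose minus glucose difference was -0.19 in atm1-1, with 41 of 44 negative, and -0.14 in Col-0, with 34 of 44 negative. The larger count of calls on sucrose is thus not shown to be a different response from that on glucose.

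None of the 44 genes was called between the genotypes by edgeR with the filter on low counts. Of the 44, 0 were called between atm1-1 and Col-0 on sucrose (0.0457% of all tested genes), on glucose (0.0508%), under mock (0.158%) or over the 3 treatments (0.884%). An unadjusted p under 0.05 was found for 4 of 44 on sucrose (910 of all 19679 tested genes), 1 on glucose (1275), 0 under mock (1084) and 6 over the 3 treatments (2090), and DESeq2 called 0 in each single treatment and 1 over the 3 treatments. The median difference over the 3 treatments was -0.076, beside -0.007 over all tested genes, and 27 of 44 were lower in atm1-1. The gene nearest the threshold was LHCB2.3, at -0.39 ± 0.12 (q = 0.172), which is the gene that DESeq2 called (-0.39, q = 0.0927). LHCA6 had the most negative value, -0.61 ± 0.25 (q = 0.357), on a mean of 10.6 CPM. With no filter on low counts edgeR called LHCA6 on sucrose (-1.09, q = 0.00689), and LHCA6 (-0.61, q = 0.0034) and LHCB2.3 (-0.39, q = 0.00482) over the 3 treatments. With the filter, LHCA6 on sucrose was at -1.09 ± 0.43 (q = 0.999 by edgeR), so its call rests on the filter setting. Without replicate 1 of atm1-1 on glucose 3 genes passed, LHCB2.3, LHCA6 and PSBS, and without replicate 2 of atm1-1 under mock LHCB2.3 passed.

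Several subunits are encoded by a pair of similar genes, and the ratio within a pair is free of library scaling. Ratios are given as log2 of the counts of the first gene over the second, with 0.5 added to each count. Averaged over the 3 libraries of a group, the PSBO1 over PSBO2 ratio was 7.22 ± 0.35 (SD, n = 3) in atm1-1 on sucrose, 7.25 ± 0.30 on glucose and 6.96 ± 0.43 under mock, against 6.67 ± 0.19, 6.88 ± 0.072 and 6.69 ± 0.31 in Col-0. PSBO1 thus held nearly all PSBO counts. Within treatments, the ratio was 6.89 to 7.58 in atm1-1 and 6.54 to 6.88 in Col-0 on sucrose, 6.95 to 7.55 and 6.80 to 6.93 on glucose, and 6.47 to 7.22 and 6.35 to 6.95 under mock. The genotypes lay apart by a narrow margin on either sugar and overlapped under mock. This was not particular to PSBO, since PSAD1 over PSAD2 did the same. It was at 2.24 to 2.46 in atm1-1 and 2.18 to 2.22 in Col-0 on sucrose, and at 2.37 to 2.88 and 2.29 to 2.34 on glucose. The genotypes were also apart for PSAE1 over PSAE2 on sucrose, at 2.07 to 2.14 in atm1-1 and 2.21 to 2.26 in Col-0, but not on glucose. These ranges were not tested within single treatments, and with 3 libraries a group some ranges can lie apart by chance. PSAD1 over PSAD2 was at 2.38 ± 0.12 in atm1-1 on sucrose and 2.34 ± 0.28 in Col-0 under mock, and PSAE1 over PSAE2 at 2.1 ± 0.036 and 2.38 ± 0.057 in the same groups. In PSAH and PSBQ the second gene was the more abundant, with log2 ratios of -1.72 ± 0.25 and -2.16 ± 0.10 in atm1-1 on sucrose and -1.73 ± 0.12 and -1.87 ± 0.33 in Col-0 under mock. The antenna pairs were closer to equal, with LHCB1.4 over LHCB1.5 at -0.29 ± 0.11 and -0.11 ± 0.053, LHCB2.1 over LHCB2.2 at 0.55 ± 0.081 and 0.50 ± 0.069, and LHCB4.1 over LHCB4.2 at 0.53 ± 0.063 and 0.54 ± 0.092 in these groups.

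**Figure D5:**
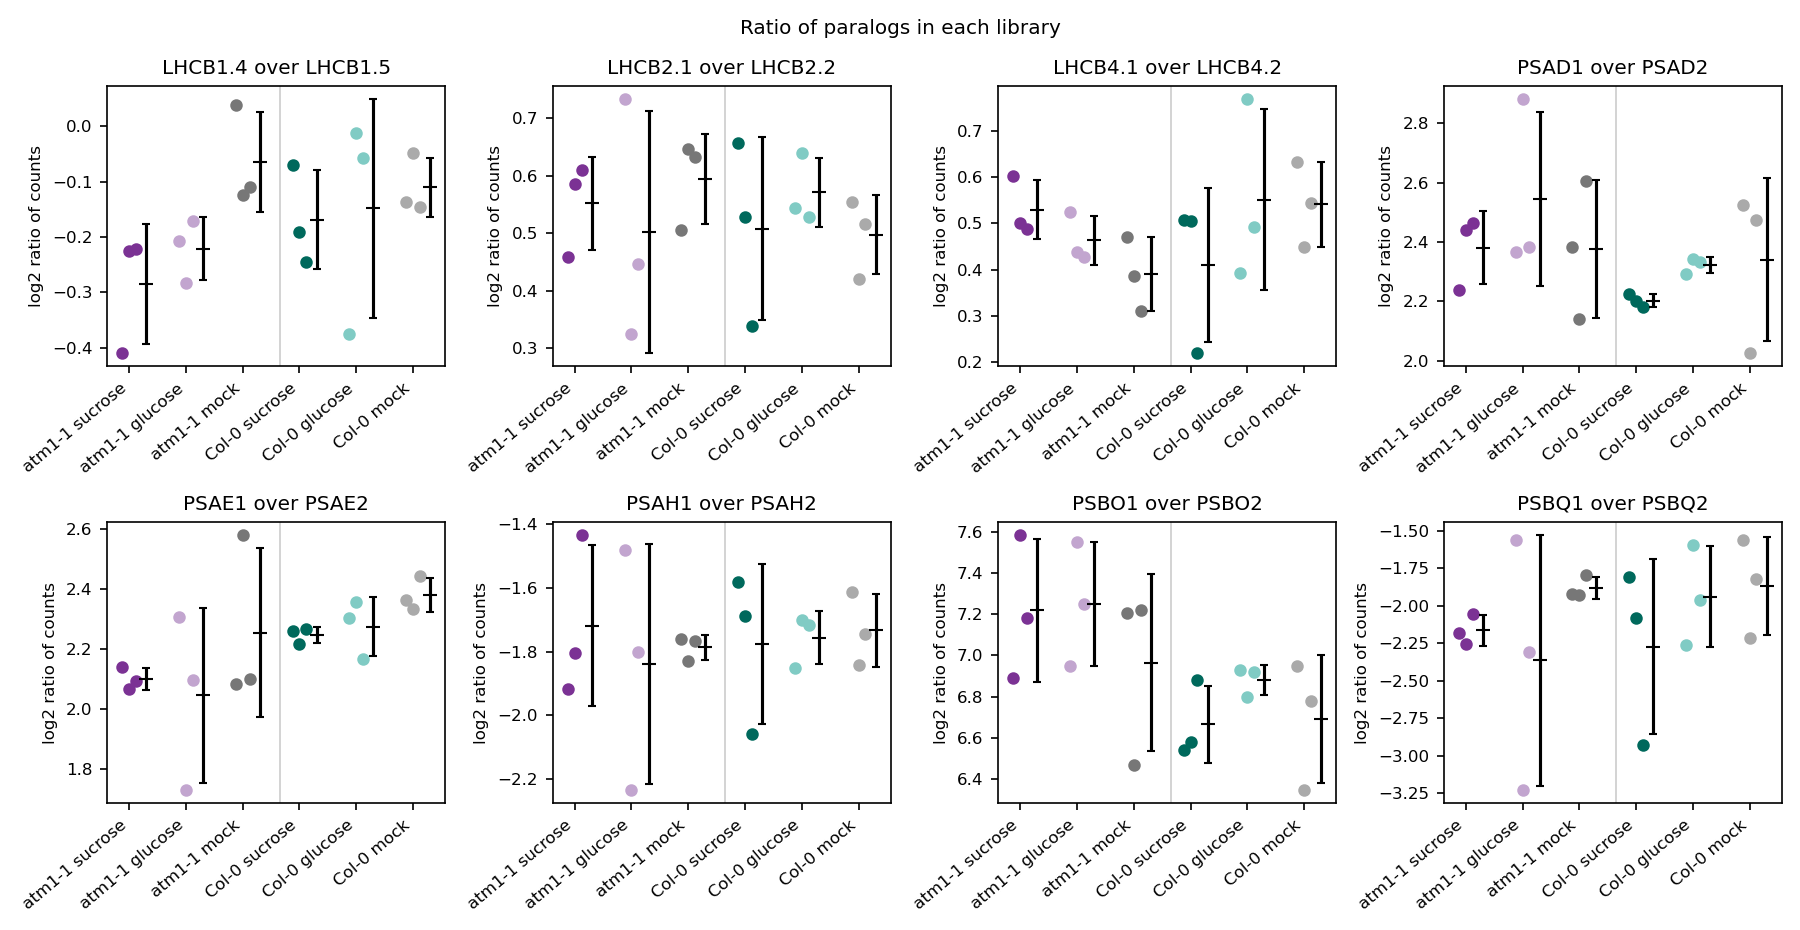
Log2 ratio of counts of the first over the second gene of 8 pairs (vertical axes, each on its own scale and not from 0) in each library of the 6 groups, with bars of the mean ± SD of 3 libraries. PSBO1 over PSBO2 averages 7.14 in the 9 atm1-1 libraries and 6.75 in the 9 Col-0 libraries, and for each of the 8 pairs the range of the 9 atm1-1 libraries overlaps that of the 9 Col-0 libraries.

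Neither sugar nor genotype was shown to move a ratio. The 8 pairs were compared in 2 ways, 16 tests in all, by a two-sided exact permutation test within genotype for sugar and within treatment for genotype, and none passed an adjusted p of 0.1. For the genotype, PSBO1 over PSBO2 averaged 7.14 in atm1-1 and 6.75 in Col-0, a difference of 0.40 (exact p = 0.0125, adjusted p = 0.200). PSAE1 over PSAE2 differed by -0.17 between atm1-1 and Col-0 (exact p = 0.0443, adjusted p = 0.245). Both passed without replicate 2 of atm1-1 under mock (adjusted exact p = 0.018 each) and without replicate 1 of atm1-1 on glucose (0.0813 each). For sugar, LHCB1.4 over LHCB1.5 averaged -0.21 in sugar libraries and -0.088 in mock libraries (exact p = 0.0459, adjusted p = 0.245). PSAE1 over PSAE2 averaged 2.17 in sugar libraries and 2.32 in mock libraries (exact p = 0.0656, adjusted p = 0.262), and it passed without replicate 1 of atm1-1 on glucose (adjusted exact p = 0.0813). The differences of the other pairs, for sugar and genotype, lay between -0.31 and 0.17.

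Nearby and similar copies limit what the counts can separate. In the RefSeq annotation of TAIR10.1 no protein-coding gene lies between LHCB1.1 and LHCB1.2, LHCB1.1 and LHCB1.3, LHCB1.4 and LHCB1.5, or LHCB2.1 and LHCB2.2. Within the last 400 bases of each transcript, windows of 50 bases that have another exact copy in the genome made up 29.3% for LHCB2.2, 17.7% for LHCB1.3, 11.7% for LHCB1.2, 8.55% for LHCA2, 6.46% for LHCB2.1 and 5.41% for LHCB1.5. For the other 38 genes the share was 0. Reads from shared stretches could have been given to either copy or dropped, so the split within LHCB1 and between LHCB2.1 and LHCB2.2 is less certain than the values of LHCB2.3, which has no such window.

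Some of the genes that work beside the photosystems were also lower on sugar, in numbers that differed by list. In the comparison over both sugars and genotypes, 5.78% of all 19679 tested genes were called lower, and the median over all was -0.0026. Of electron transport and ATP synthase, 7 of 13 genes were called lower and none higher (median -0.31). Among them FD2 (AT1G60950), the main leaf ferredoxin, changed by -0.72 ± 0.086 (q = 3.41e-06), PETE1 (AT1G76100), a plastocyanin, by -0.47 ± 0.087 (q = 0.000943) and PETM (AT2G26500), a cytochrome b6f subunit, by -0.45 ± 0.08 (q = 0.000555). Chlorophyll biosynthesis had 11 of 18 genes lower and none higher (median -0.37). GUN4 (AT3G59400), a cofactor of magnesium chelatase, changed by -0.64 ± 0.15 (q = 0.00834), HEMA1 (AT1G58290), for the first committed enzyme of tetrapyrrole synthesis, by -0.61 ± 0.10 (q = 0.000331) and CAO (AT1G44446), which makes chlorophyll b, by -0.50 ± 0.10 (q = 0.00223). The Calvin cycle had 8 of 10 genes lower (median -0.33), with GAPA at -0.53 (q = 0.0280), SBPASE at -0.46 (q = 0.0156) and GAPB at -0.43 (q = 0.0220). A list of genes for antenna insertion, for phosphorylation and dephosphorylation of thylakoid proteins, and for regulators such as GLK1, GLK2, HY5 and GUN1 had 3 of 11 genes lower (median -0.17). These were STN8 at -0.44 (q = 0.0282), TAP38 at -0.36 (q = 0.0623) and CPSRP43 at -0.28 (q = 0.0512), for a kinase, a phosphatase and an antenna targeting protein, and none of the 4 regulators passed. LHC-like stress proteins had 3 of the 6 tested genes lower (median -0.46), OHP2 at -0.56 (q = 0.0176), OHP1 at -0.54 (q = 0.00527) and SEP1 at -0.37 (q = 0.0863). These lists overlap the photosystem genes in no locus, and the same libraries and mock controls underlie them all.

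Markers of root and shoot and genes of the clock were examined in that comparison. Of all 19679 tested genes, 2307 were called there in either direction and 5.78% were called lower. Of 16 tested root markers, EXPA18 and ESB1 were higher (1.15, q = 0.00101, and 0.49, q = 0.00341) and NRT2.1 was lower (-2.39, q = 0.0393, at most 1.5 CPM in any library), with a median of 0.14. Of 10 tested shoot markers, YAB3 and YAB5, which specify the lower leaf side, were lower (-0.46, q = 0.0123, and -0.46, q = 0.0231), with a median of 0.033. None of 10 clock genes was called (median -0.083, 2 at an unadjusted p under 0.05, beside 4229 of all 19679 tested genes). Their summed level was 267 to 291 CPM in atm1-1 on sucrose and 274 to 282 on glucose against 295 to 316 under mock, and 261 to 273 and 246 to 288 against 269 to 293 in Col-0. The part of tissue proportions or harvest time in the sugar response of the photosystem genes was not tested. Between atm1-1 and Col-0 over the 3 treatments, no photosystem gene passed and 0.884% of all tested genes were called. Of chlorophyll biosynthesis 3 of 18 genes were called lower in atm1-1, GUN4 (-0.85 ± 0.15, q = 0.00304), CAO (-0.54 ± 0.098, q = 0.00475) and HEMA1 (-0.43 ± 0.099, q = 0.0497). In that list 6 of the 18 had positive values, up to 0.42. Also lower were 2 of 10 genes of the Calvin cycle, RCA and RBCS1B, and 1 of 13 of electron transport and ATP synthase, ATPC1.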

How the data were processed

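RNA of 18 seedling libraries was sequenced by the Lexogen QuantSeq 3′ forward kit. The authors deposited raw counts per gene for each library, whole numbers without normalization. The submitters' processing notes name STAR, HTSeq, edgeR and TAIR10. Versions and the use of strand in counting are not given in the sources used here. A second deposited table, of scaled counts, was not used.

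Genes were filtered with filterByExpr over the 6 groups, which left 19679 of 32832, and TMM-normalized. A quasi-likelihood model of 6 groups was fitted in edgeR 4.0.16 (R 4.3.3), with q the Benjamini-Hochberg adjusted p over all tested genes in each of 13 comparisons and the SE of a log2 fold change its size over the square root of F. The study's own test, PoissonSeq, was not used here. The scripts were tested on simulated data. The 44 genes, the other gene lists and the tests were chosen with earlier results of these data known. Genes given in every library are the 3 most abundant of each set and the 3 largest falls among the genes called in each comparison, to which PSBW was added after its values were seen. Companion genes were named, at most 3 a list by size of change, when called over both genotypes, while marker genes and those of the genotype comparison were named because few passed.

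Paralog ratios were tested with Python 3.11.15 and numpy 2.4.6. Alternatives were RLE normalization, scaling by library size alone, keeping genes with low counts, DESeq2 1.42.0, fitting the compared groups alone, a q of 0.05, the replicate number as a block, a pseudocount of 5 for ratios, and leaving out each library. Promoter motifs were not analysed here, and the reference held is TAIR10.1, so no coordinates or sequences are given. The samples are described as biological replicates.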

Additional observations from a re-analysis of the deposited data

How the results depend on the processing

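Over both sugars and genotypes the count of 30 genes lay between 24 and 32 under each normalization, filter, q and tool tried, and between 20 and 36 when 1 library was left out. Smaller comparisons depended more on the setting. For sucrose in Col-0 (6 genes) the count was 1 at a q of at most 0.05, 13 with no filter on low counts and 15 by DESeq2, and 0 to 17 with 1 library left out (0 without mock replicate 1 or 3 or sucrose replicate 2 or 3, 17 without sucrose replicate 1). For sucrose in atm1-1 (12 genes) it was 3 at a q of at most 0.05, 4 with library size scaling, 26 when only the groups compared were fitted, and 1 to 12 with 1 library left out (1 without sucrose replicate 1, 2 without mock replicate 2 or 3 or sucrose replicate 3, 7 without mock replicate 1). For glucose in atm1-1 (1 gene) it was 2 with library size scaling, 5 with no filter, 3 by DESeq2, 0 with only the groups compared, and 0 to 11 with 1 library left out (0 without mock replicate 2 or glucose replicate 2, 11 without glucose replicate 1). For glucose in Col-0 (0 genes) fitting only the groups compared gave 2. Between genotypes on sucrose (0 genes) no filter gave 1, LHCA6, and over the 3 treatments (0 genes) no filter gave 2, DESeq2 gave 1, and leaving out 1 library gave 0 to 3 (1 without atm1-1 mock replicate 2, 3 without atm1-1 glucose replicate 1). The causes were not tested, and counts over all tested genes under these settings are not given here. The shifts are thus not shown to be particular to the 44 genes. Library size scaling shifted the median of all genes to 0.15 on sucrose in Col-0 and 0.14 in atm1-1, where the medians of the 44 genes were -0.22 and -0.29. Sugar minus mock, the antenna share was -1.77 percentage points and -2.60 after TMM scaling, and the photosystem I share -0.844 and -1.15.

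With the replicate number as a block (replicate block) 30 genes were called over both sugars and genotypes, 9 for sucrose in atm1-1, 5 for sucrose in Col-0 and 1 for glucose in atm1-1. Only 4 of 45 correlations between same-numbered libraries of different groups exceeded 0.1, with a highest value of 0.36. In 14 of the 45 the same-numbered library correlated better than the others of its group. These values give no clear sign that the numbers pair the samples, and they do not show that the samples are unpaired.

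Leaving out 1 library turned the sign of PSBY over both sugars and genotypes (-0.094 to 0.17) and of small paralog ratio differences. For sugar these were LHCB2.1 over LHCB2.2 (-0.035 to 0.0074), LHCB4.1 over LHCB4.2 (-0.0057 to 0.049), PSAD1 over PSAD2 (-0.075 to 0.061) and PSAH1 over PSAH2 (-0.047 to 0.033), and for genotype LHCB2.1 over LHCB2.2 (-0.015 to 0.053), PSAH1 over PSAH2 (-0.086 to 0.040) and PSBQ1 over PSBQ2 (-0.24 to 0.034). The number of pairs that passed was 0 to 1 for sugar (1 without atm1-1 glucose replicate 1) and 0 to 2 for genotype (2 without atm1-1 mock replicate 2 or atm1-1 glucose replicate 1). With 3 libraries a group a call that fails does not show that the groups are alike, and LHCB4.3, LHCB7 and LHCA6 are limited by their low counts.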
